A study of Mus musculus with 155 samples.

Results

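Mouse embryonic stem cells (ESCs) that had received the PRC2 inhibitor GSK343 were compared with untreated ESCs after 24 and 72 h, to ask which transcripts differ after 1 to 3 days of inhibition. The comparison takes 8 of the 155 samples of the series, which are 8 of its 32 ESC RNA-seq libraries: 4 with GSK343 and 4 without, 2 of each at each time, with the time as a factor. All 8 come from KH2 ESCs, an established line in which doxycycline (Dox) switches on a transgene, here wild-type histone H3.3 with SNAP and HA tags (WT-H3.3). Dox was present in every library for the 24 or 72 h, in the treated cells together with GSK343 for the same hours, and all cells grew on gelatin in serum with LIF and the 2i inhibitors. The wider study followed the incorporation and effects of H3.3K27M, an oncohistone that inhibits PRC2, and used GSK343 to inhibit the enzyme without the mutant histone. The dose of GSK343 is not stated in the labels. Replicates were grown several weeks apart, and 1 engineered line stands for all of them. H3K27me3 was not measured in the libraries used here, so these RNA values hold no check that the inhibitor worked. The study reports lower H3K27me3 and higher H3K27ac in WT-H3.3 ESCs given GSK343, from samples not analysed here.

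PRC2 is the complex that methylates lysine 27 of histone H3. Its catalytic subunit is EZH2 or EZH1, EED and SUZ12 are needed for activity, and GSK343 competes with the methyl donor S-adenosylmethionine in the EZH2 active site. In ESCs the trimethylated mark lies over the CpG-rich promoters of silent developmental regulators such as the Hox clusters, where it is read by CBX proteins of PRC1 and by EED itself. The mark is passed on and diluted at each replication, and the demethylases KDM6A and KDM6B remove it.

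The libraries held 5295859 to 14894977 counts in genes, and the GSK343 libraries were the shallower ones at 72 h (7889354 and 5552993, against 14894977 and 11730023). The ESC markers Pou5f1, Sox2, Nanog, Esrrb, Klf4, Tfcp2l1 and Dppa5a were all present, with a lowest level in any library of 261.8 CPM (counts scaled to library size, by TMM throughout). Zfp42 lies on chromosome 8, which was left out. One untreated library stood apart. The Spearman correlation, across genes, of a library's deviation from the mean with exon length was -0.513 and 0.058 in the untreated 24 h replicates 1 and 2, and -0.313 and -0.487 with GSK343. At 72 h it was 0.371 and 0.398 without and 0.405 and 0.441 with GSK343. Untreated 24 h replicate 2 thus lay between the other 24 h libraries and the 72 h libraries, and without it the common dispersion dropped from 0.0138 to 0.00683. The counts and medians of gene lists for 24 and 72 h together are therefore given with and without this library. Without it, 49.3% of all genes were above 0, and 5.45% were higher and 5.18% lower at an unadjusted p under 0.05. List values at 24 h alone and those for H3.3K27M include it. Leaving it out moved the 24 h median of Hox genes from 0.28 to 0.70 and of germline genes from 0.51 to 0.13. In a fit of all 8 libraries with the correlation of each library with exon length as a covariate, the median was 0.26 for cholesterol synthesis, 0.30 for Hox and 0.12 for germline genes. Without the covariate it was 0.22, 0.29 and 0.17. For ribosomal protein genes it was -0.10 with and -0.04 without the covariate. That fit was chosen after seeing the data, and the part of gene length in the list values was not tested beyond it.

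**Figure D1:**
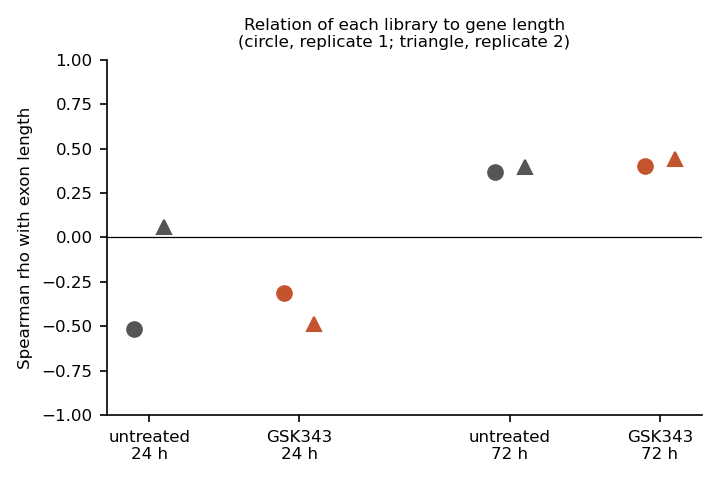
Spearman correlation of each library's deviation from the mean log2 CPM with exon length, across genes (y axis, no unit), for the untreated and GSK343 libraries of 24 and 72 h (x axis; circles, replicate 1; triangles, replicate 2). The untreated 24 h replicate 2 sits at 0.058, while the other 24 h libraries sit between -0.513 and -0.313 and the 72 h libraries between 0.371 and 0.441.

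No gene was called in either direction. Of 13034 genes tested, 0 (0%) had an adjusted p under 0.05 by edgeR's quasi-likelihood test, the lowest adjusted p being 0.987, and DESeq2 called 0 too. At an unadjusted p under 0.05 there were 271 genes with higher (2.08%) and 238 with lower values (1.83%) in GSK343-treated cells, 509 in all (3.91%), and DESeq2 gave 324. The precision was enough to bound most genes: the median SE of a log2 fold change was 0.133, and the 95% interval of 11837 genes (90.8%) lay within 2-fold in either direction. For 9284 genes (71.2%) it lay within 1.5-fold. The GSK343 libraries lay all above the untreated ones for 107 genes (0.821%) and all below for 96 (0.737%). The log2 fold change was above 0 for 5931 genes (45.5%), with a median of -0.02. In what follows no gene rose or fell by the test unless it is said so, log2 fold changes are GSK343 over untreated ± SE, with 4 libraries a group, and gene positions are those of NCBIM37 (mm9).

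**Figure D2:**
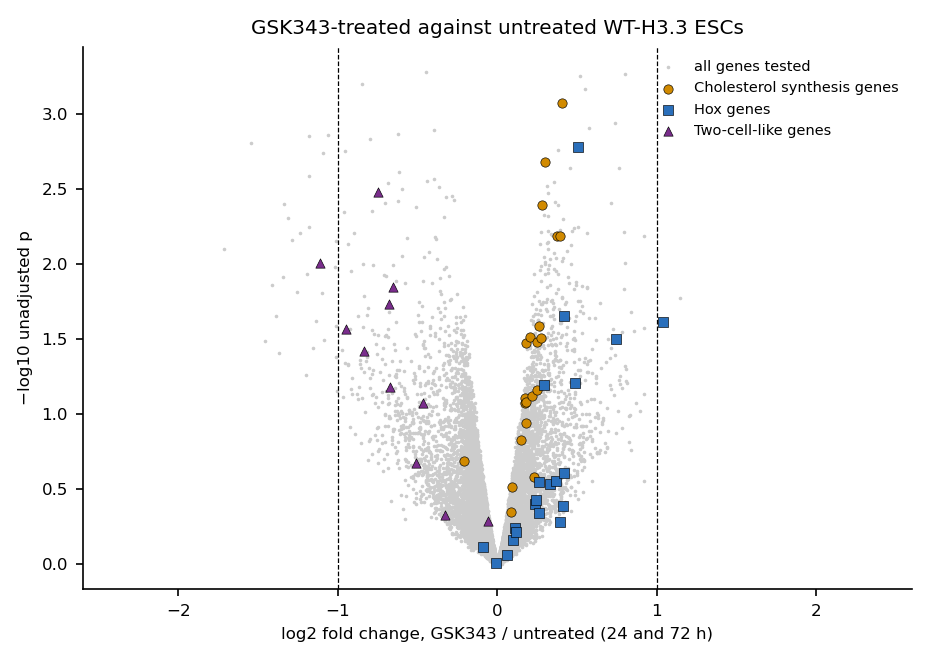
Log2 fold change of GSK343 over untreated cells (x axis) against -log10 of the unadjusted p (y axis) for the 13034 genes tested (grey), with cholesterol synthesis, Hox and 2-cell-like genes coloured and dashed lines at 2-fold. Of the cholesterol genes 20 of 21 lie to the right of 0 and all 11 tested 2-cell-like genes to the left, while no gene passes the adjusted threshold.

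Leaving out untreated 24 h replicate 2 gave 2 genes (0.0147%) with an adjusted p of 0.0216 by edgeR and 1449 of 13621 genes at an unadjusted p under 0.05 (10.6%), still with 0 past 2-fold. Meis2, a TALE homeobox gene and partner of Hox proteins (chr2:115688800-115891575), then rose by 0.80 ± 0.12. Its levels were 9.04, 21.8, 18.4 and 20.5 CPM in untreated 24 h replicates 1 and 2 and 72 h replicates 1 and 2, and 18.2, 16.4, 30.03 and 35.2 CPM in the GSK343 libraries in the same order. The separation was seen at 72 h, while at 24 h the library that was left out was the highest of the 4. Calcoco2, a receptor of selective autophagy (chr11:95960640-95973278), fell by 0.78 ± 0.11 in that fit. Its levels were 182.6, 108.2, 71.8 and 98.2 CPM without and 96.8, 114.1, 46.2 and 52.6 CPM with GSK343, so that at 72 h both treated libraries were below both untreated ones. With all 8 libraries the log2 fold changes were 0.48 ± 0.22 for Meis2 and -0.62 ± 0.16 for Calcoco2. A fit with the length relation of each library as a covariate, chosen after seeing the data, passed 3 genes (0.023%), again with 0 past 2-fold: Calcoco2 and Cth with an adjusted p of 0.0344 and Meis2 with 0.0434 (edgeR).

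The genes with the lowest unadjusted p in the 8 libraries, picked after their values were seen, came from several pathways. Cth makes cysteine from cystathionine (chr3:157557212-157588041). It was at 202.9, 162.5, 102.4 and 108.7 CPM in untreated cells and at 119.1, 141.0, 81.0 and 77.7 CPM with GSK343, a log2 fold change of -0.45 ± 0.10. At each time both treated libraries were below both untreated ones. P2rx7, an ATP-gated ion channel (chr5:123093920-123141441), was at 3.69, 5.06, 21.5 and 15.5 CPM without and 10.8, 7.44, 32.8 and 26.7 CPM with GSK343 (0.80 ± 0.17). Here the treated libraries were the higher ones at each time, on top of higher levels at 72 h in both groups. Gpnmb, a transmembrane glycoprotein linked to lysosomes, was at 8.40, 16.1, 13.5 and 12.4 CPM in untreated and 23.5, 24.5, 18.9 and 18.2 CPM in treated cells, with no overlap (0.74 ± 0.18). Cgnl1, which codes for the junction protein paracingulin, was at 13.0, 13.6, 18.7 and 31.0 CPM in untreated and 10.4, 7.08, 12.1 and 12.4 CPM in treated cells, again with no overlap, on the lower side (-0.85 ± 0.19). None of these passed the adjustment (edgeR, adjusted p of 0.987 for each).

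**Figure D3:**
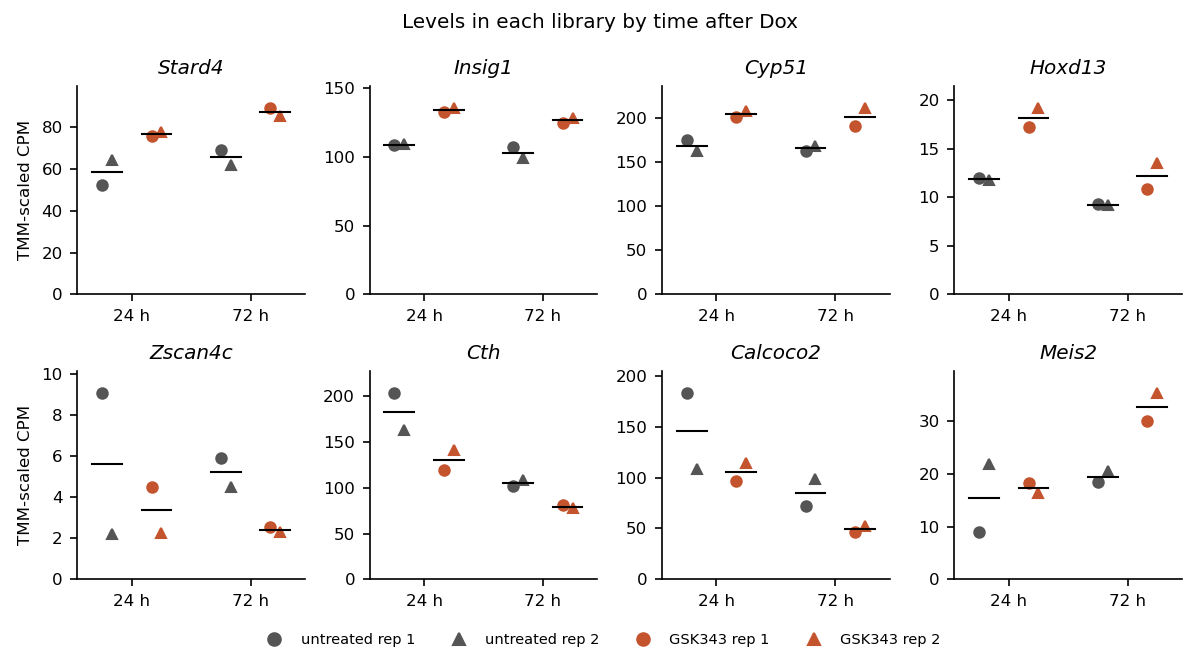
TMM-scaled CPM (y axes, starting at 0) of Stard4, Insig1, Cyp51, Hoxd13, Zscan4c, Cth, Calcoco2 and Meis2 in each of the 8 libraries by time after Dox (x axis; circles, replicate 1; triangles, replicate 2; grey, untreated; orange, GSK343; lines, means of 2). Stard4, Insig1 and Cyp51 do not overlap between the groups, whereas Calcoco2 and Meis2 are apart at 72 h and overlap at 24 h.

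Genes of cholesterol synthesis and uptake lay above 0 as a list, although none was called. Of 21 tested, 20 had a log2 fold change above 0, against 45.5% of all genes, with a median of 0.22 against -0.02. They reached an unadjusted p under 0.05 in 10 of 21 cases, all on the higher side, where the share over all genes was 2.08%. The list, like the others, was chosen with earlier results of these data known. Its members were measured in the same libraries and are not independent of each other. At 24 h 20 and at 72 h 21 were above 0 (45% and 50.3% of all genes), with medians of 0.22 and 0.23. Without untreated 24 h replicate 2, 20 were above 0, the median was 0.28, and 17 were at an unadjusted p under 0.05 on the higher side. The summed level of the list was 1891 to 2250 CPM in the untreated and 2317 to 2584 CPM in the GSK343 libraries.

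The promoters of 3 of these genes are shown because genes of this pathway are known targets of the SREBP factors, which act together with NF-Y at CCAAT boxes. They are RefSeq sequences of GRCm38.p6, 250 bases before to 50 after the start of transcription, 5′ to 3′ on the gene's strand, with CCAAT, or ATTGG on the other strand, in capitals.

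Insig1 promoter, GRCm38.p6 chr5:28071162-28071461, plus strand: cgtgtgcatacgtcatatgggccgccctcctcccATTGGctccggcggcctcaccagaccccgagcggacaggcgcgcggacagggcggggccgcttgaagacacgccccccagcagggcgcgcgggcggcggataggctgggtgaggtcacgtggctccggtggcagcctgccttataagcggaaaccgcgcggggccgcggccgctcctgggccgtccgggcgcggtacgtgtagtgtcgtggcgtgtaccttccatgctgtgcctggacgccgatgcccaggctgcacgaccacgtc

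Cyp51 promoter, GRCm38.p6 chr5:4104648-4104947, minus strand: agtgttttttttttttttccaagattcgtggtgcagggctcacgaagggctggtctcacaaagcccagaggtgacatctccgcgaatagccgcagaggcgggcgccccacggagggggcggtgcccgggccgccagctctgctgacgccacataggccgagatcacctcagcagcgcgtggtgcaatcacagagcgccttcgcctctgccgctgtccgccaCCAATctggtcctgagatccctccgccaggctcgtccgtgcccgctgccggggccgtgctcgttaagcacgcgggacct

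Hsd17b7 promoter, GRCm38.p6 chr1:169969156-169969455, minus strand: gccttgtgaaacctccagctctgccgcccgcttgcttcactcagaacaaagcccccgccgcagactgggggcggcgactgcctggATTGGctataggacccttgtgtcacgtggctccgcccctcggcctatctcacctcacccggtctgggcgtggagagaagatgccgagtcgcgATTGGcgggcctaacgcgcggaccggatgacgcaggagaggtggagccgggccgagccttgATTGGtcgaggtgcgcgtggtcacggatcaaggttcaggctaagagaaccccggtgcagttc

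A CCAAT or ATTGG was found in a promoter of 13 of the 13 list genes with a promoter sequence (100%). The share was 4111 of 9436 among genes tested (43.6%) and 41.1% among all 27025 genes with a promoter sequence. The motif was chosen after a first search, for the sterol element TCACNCCAC on both strands, found 0 of 13 (against 1.48% of genes tested). Such matches describe the letters of this window only.

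Insig1 holds the SREBP complex in the endoplasmic reticulum when sterols are plentiful and is itself an SREBP target (chr5:28397952-28405201). It was at 108.5, 109.4, 107.2 and 99.3 CPM in untreated 24 h replicates 1 and 2 and 72 h replicates 1 and 2, and at 132.6, 135.5, 125.0 and 128.4 CPM in the GSK343 libraries in that order. The groups did not overlap, and the log2 fold change was 0.30 ± 0.08 (106.1 ± 4.61 against 130.4 ± 4.62 CPM, SD, n = 4). Cyp51, the lanosterol demethylase (chr5:4081145-4104746), was at 174.7, 162.0, 162.0 and 168.2 CPM without and 201.0, 207.3, 190.0 and 210.4 CPM with GSK343. It did not overlap either (0.28 ± 0.08). Stard4, a carrier of cholesterol between membranes (chr18:33359009-33373516), had the largest difference of the list, 0.40 ± 0.09, and was the third of 3 without overlap (0.821% of all genes lay above without overlap): 52.2, 64.3, 68.9 and 62.0 CPM against 75.6, 77.7, 88.9 and 85.1 CPM.

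Other enzymes of the pathway gave smaller or more scattered differences. The log2 fold change was 0.39 ± 0.12 for Hsd17b7 and 0.37 ± 0.11 for Dhcr7, which act late in synthesis, and 0.28 ± 0.11 for Lss, the lanosterol synthase. Srebf2, which codes for the SREBP factor of this pathway, was at 0.15 ± 0.10. Idi1, the isomerase of the isoprenoid building block, was the exception at -0.21 ± 0.15. Its 72 h value was 0.09.

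Hox genes, the best known PRC2 targets, also lay mostly above 0 at very low levels. Of 39 genes 38 were matched and 21 passed the filter on low counts, 19 of them above 0 (45.5% of all genes), with a median of 0.29 and 4 at an unadjusted p under 0.05, all higher (2.08% of all genes). Since genes that pass the filter may do so through the group in which they are higher, this count does not stand for all Hox genes. Only 13 of the 21 had a 95% interval within 2-fold, and the median SE was 0.29. The number above 0 was 17 at 24 h and 17 at 72 h, and 13 were above 0 at both (26.5% of all genes). In the fit without untreated 24 h replicate 2, 21 were above 0, with a median of 0.33 and 9 higher at an unadjusted p under 0.05.

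Hoxb4 had the largest log2 fold change, 1.04 ± 0.41 (chr11:96177998-96182952). It was at 0.51, 0.91, 0.56 and 0.94 CPM in untreated and 2.74, 2.28, 0.66 and 0.97 CPM in treated cells. Only the 24 h libraries were apart. Hoxd13, the most 5′ gene of its cluster (chr2:74506367-74509656), was at 11.97, 11.8, 9.33 and 9.20 CPM without and 17.2, 19.2, 10.9 and 13.5 CPM with GSK343, a log2 fold change of 0.51 ± 0.13. Both treated libraries were above both untreated ones at each time. For Hoxa10 the value was 0.74 ± 0.31 and for Hoxd9 0.42 ± 0.16. The Hoxd13 promoter (RefSeq, as above) is shown with its CpG dinucleotides in capitals, since PRC2 is found at CpG-rich starts.

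Hoxd13 promoter, GRCm38.p6 chr2:74667975-74668274, plus strand: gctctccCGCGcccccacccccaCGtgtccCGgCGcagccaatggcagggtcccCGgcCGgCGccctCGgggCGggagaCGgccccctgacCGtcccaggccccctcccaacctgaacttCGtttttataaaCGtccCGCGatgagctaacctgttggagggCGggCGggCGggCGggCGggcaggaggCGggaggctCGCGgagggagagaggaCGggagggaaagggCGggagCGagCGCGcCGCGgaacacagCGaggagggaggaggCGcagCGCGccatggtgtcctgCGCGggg

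It holds 37 CpG, an observed to expected ratio of 0.904. The median ratio was 0.573 for the 11 Hox genes with a promoter sequence and 0.759 for the genes tested, each gene at the median of its promoters. No gene was called, so there was no set of called genes whose promoters could be compared.

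Across a broader list of classical PRC2 targets the values were closer to those of all genes. The list had 137 genes, 135 matched, 56 of them tested, and 20 of the 56 stand in other lists too. Of the 56, 36 were above 0 with a median of 0.09, and 5 were at an unadjusted p under 0.05, all higher (2.08% of all genes), among them Cdkn2a, Cdkn2b, Meis2 and Tbx15. As with the Hox genes, members may pass the filter through the group in which they are higher, so these counts do not stand for the whole list. When untreated 24 h replicate 2 was left out, 38 were above 0 with a median of 0.09, and 13 were higher and 1 lower at an unadjusted p under 0.05. Cdkn2a and Cdkn2b, the neighbouring cell cycle inhibitor genes, had log2 fold changes of 0.31 ± 0.11 and 0.56 ± 0.20. Cdkn2b was at 3.57, 4.79, 5.12 and 3.38 CPM in untreated and 6.86, 6.96, 6.11 and 5.22 CPM in treated cells, without overlap. Tbx15, a T-box regulator of skeletal development, was at 0.49 ± 0.19. En1, a midbrain and limb regulator, had the largest difference of the list and lay below 0 (-0.58 ± 0.29), with 0.98, 0.84, 1.33 and 1.16 CPM in treated and 1.02, 0.91, 2.25 and 2.35 CPM in untreated cells. It was apart at 72 h alone.

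The machinery itself showed small differences. Ezh2 mRNA, which an inhibitor of the enzyme need not alter (chr6:47480273-47545340), was at 298.7, 256.5, 286.8 and 302.2 CPM in untreated and 292.6, 288.9, 283.9 and 281.6 CPM in treated cells. The log2 fold change was 0.00 ± 0.08, with a 95% interval of -0.18 to 0.19. Ezh1 was at -0.04 ± 0.09 and Suz12 at -0.11 ± 0.10. Eed, the subunit that reads and propagates the mark (chr7:97103166-97129493), was at 372.3, 270.1, 272.6 and 295.0 CPM without and 247.0, 254.9, 258.7 and 252.4 CPM with GSK343. It was the only one of the 13 PRC2 subunits whose groups did not overlap (-0.25 ± 0.11), where 0.737% of all genes lay below without overlap. Phf19, an accessory subunit that brings PRC2 to CpG islands, had the largest difference among the 13 at -0.37 ± 0.25, and 9 of the 13 were below 0 with a median of -0.04. In the fit without untreated 24 h replicate 2, 5 were above 0 with a median of -0.05, and 4 instead of 1 were lower at an unadjusted p under 0.05.

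For PRC1, which reads the mark and ubiquitinates H2A, 10 of 21 subunits were above 0 with a median of -0.01, and 14 with a median of 0.03 without untreated 24 h replicate 2. Bmi1, a RING finger subunit (chr2:18598645-18608256), was at 29.8, 26.7, 29.0 and 25.1 CPM in untreated and 38.4, 33.1, 34.4 and 32.5 CPM in treated cells, without overlap (0.32 ± 0.10). Cbx8, a reader of H3K27me3, was at 0.36 ± 0.19. A list of 11 demethylases, acetyltransferases, deacetylases and readers that act on H3K27 or bind it had 2 above 0 with a median of -0.12, and 3 with a median of -0.06 without untreated 24 h replicate 2. Kdm6a and Kdm6b were at -0.18 ± 0.11 and -0.15 ± 0.12, and Uty, the Y-linked homolog of Kdm6a, at -0.26 ± 0.12. The endogenous H3.3 genes H3f3a and H3f3b were at -0.07 ± 0.14 and 0.00 ± 0.10. Whether reads of the transgene count toward them was not tested.

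**Figure D4:**
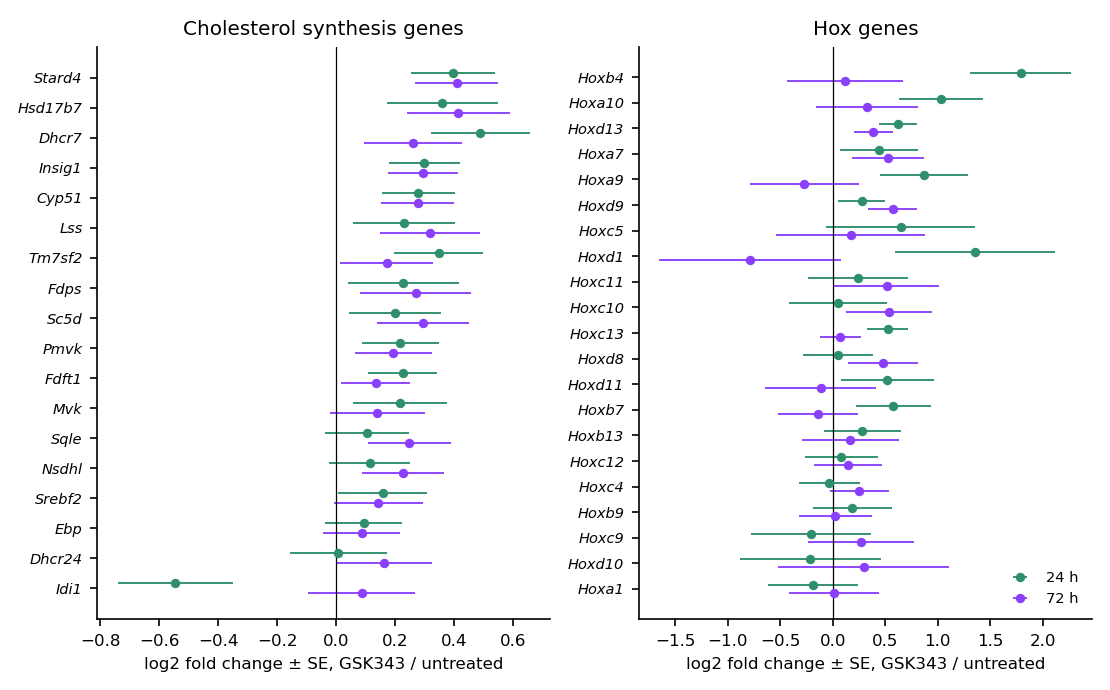
Log2 fold change ± SE of GSK343 over untreated cells (x axis) at 24 h (green) and at 72 h (purple) for 18 of the 21 tested cholesterol synthesis genes and the 21 tested Hox genes (rows). The 18 cholesterol genes drawn are above 0 at 72 h and, except Idi1, at 24 h, while the Hox genes carry wider errors and 17 are above 0 at each time.

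Genes of the 2-cell-like state, a rare ESC state that resembles the early embryo, were on the lower side. Of 22 genes 15 were matched and 11 tested, and all 11 had a log2 fold change below 0, with a median of -0.67 and 6 at an unadjusted p under 0.05 (1.83% of all genes on that side). At both times 10 of the 11 were below 0 (31.2% of all genes), and without untreated 24 h replicate 2 the median was -0.88, with 10 lower at an unadjusted p under 0.05. Many of them are near-identical copies between which reads can be divided, so their counts are uncertain and not independent. Members may also pass the filter on low counts through the group in which they are higher. In bulk RNA, fewer cells in this state and less RNA in each such cell cannot be told apart.

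Zscan4f, of a family that marks the state, had the largest log2 fold change, -1.11 ± 0.36 (chr7:11983264-11988090). It was at 2.55, 0.91, 4.14 and 2.72 CPM without and 1.18, 0.60, 1.86 and 1.16 CPM with GSK343. Both treated libraries were the lower ones at 72 h, but at 24 h untreated replicate 2 lay between them. Zscan4d was at 15.3, 6.22, 15.01 and 10.04 CPM against 7.64, 5.997, 8.24 and 7.54 CPM (-0.68 ± 0.25), and Usp17lc, a deubiquitinase gene of the same state, at 7.26, 4.28, 9.26 and 7.42 CPM against 4.31, 3.36, 4.78 and 4.45 CPM (-0.75 ± 0.21). In all 3 the untreated 24 h replicate 2 was the lowest untreated library.

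Germline genes, many of which are kept silent in ESCs by PRC1.6 and DNA methylation, gave an example of a list that rested on 1 library. With 8 libraries 25 of 30 were above 0 (45.5% of all genes) with a median of 0.17. Here too members may pass the filter on low counts through the group in which they are higher. The median was 0.51 at 24 h, with 28 above 0, and -0.11 at 72 h, with 11 above 0. Without untreated 24 h replicate 2 it was 0.02, with 15 above 0. Fkbp6 and Piwil2, of the piRNA pathway, had log2 fold changes of 0.52 ± 0.11 and 0.55 ± 0.12, and 0.43 and 0.50 without that library. Piwil2 was at 15.02, 15.03, 44.0 and 37.1 CPM in untreated and 29.4, 23.2, 53.5 and 51.2 CPM in treated cells, higher at each time. Meioc, which sustains the meiotic programme (chr11:102525030-102543551), lay the other way: 5.98, 4.67, 6.10 and 8.07 CPM in untreated and 3.33, 3.72, 3.59 and 3.48 CPM in treated cells, without overlap (-0.80 ± 0.20).

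Pluripotency genes differed little. Sox2 was at -0.02 ± 0.09 and Nanog at -0.09 ± 0.10. Of 20 naive pluripotency genes 7 were above 0 with a median of -0.08, and the largest difference was 0.21 ± 0.12, for Tcl1, a coactivator of AKT. When untreated 24 h replicate 2 was left out, 10 were above 0 with a median of 0.02. Among general and primed genes 5 of 16 were above 0 (8 without that library), and Sox3 had the largest difference, -0.36 ± 0.38. Of the genes of DNA methylation and demethylation, 3 of 10 were above 0 with a median of -0.13, and 4 with a median of -0.05 without that library. Tet2, which oxidizes methylcytosine, had a value of -0.44 ± 0.23 that was -0.07 without untreated 24 h replicate 2.

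No marker of another cell type was called, and some of each list were at 0 or below 1 CPM while others were well expressed. Members of these lists may pass the filter on low counts through the group in which they are higher, so the counts below do not stand for whole lists. Mesoderm and primitive streak markers were above 0 in 12 of 13 cases (45.5% of all genes) with a median of 0.21, Mixl1 having the largest difference (0.49 ± 0.24). Their summed level was 720.5 to 1031 CPM in untreated and 896.3 to 1034 CPM in treated cells, with Msgn1 and Lhx1 at 0 and 8 of 21 below 1 CPM. Trophoblast markers were above 0 in 9 of 11 cases (median 0.09, Krt19 0.52 ± 0.34), with sums of 204.9 to 248.1 and 235.2 to 264.9 CPM and with Psg17 and Tpbpa at 0 in all 8 libraries. Extraembryonic endoderm markers were above 0 in 3 of 8 (median -0.05), with Dab2 at 0.71 ± 0.35, Lamb1 at -0.62 ± 0.15, sums of 937.4 to 1306 and 861.4 to 1077 CPM, and Afp at 0. Neural markers were above 0 in 4 of 11 (median -0.08, Elavl4 0.42 ± 0.27), with sums of 560.2 to 737.6 and 648.4 to 681.1 CPM and with Dcx, Neurog2 and Fabp7 at 0. Fibroblast and matrix markers were above 0 in 8 of 11 (median 0.17, Fbln2 -0.86 ± 0.38), with sums of 1342 to 2316 and 1295 to 2137 CPM and S100a4 at 0. Of fibroblast and matrix markers 13 of 23 were below 1 CPM, of endoderm markers 13 of 21, of neural markers 9 of 20 and of trophoblast markers 7 of 18. Without untreated 24 h replicate 2 the medians were 0.15 for mesoderm (11 above 0), 0.04 for trophoblast (8), 0.06 for endoderm (4, so that the sign turned), -0.07 for neural (4) and 0.05 for fibroblast markers (7). All 5 sums overlapped between the groups, and the part of such cells in the results was not tested.

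**Figure D5:**
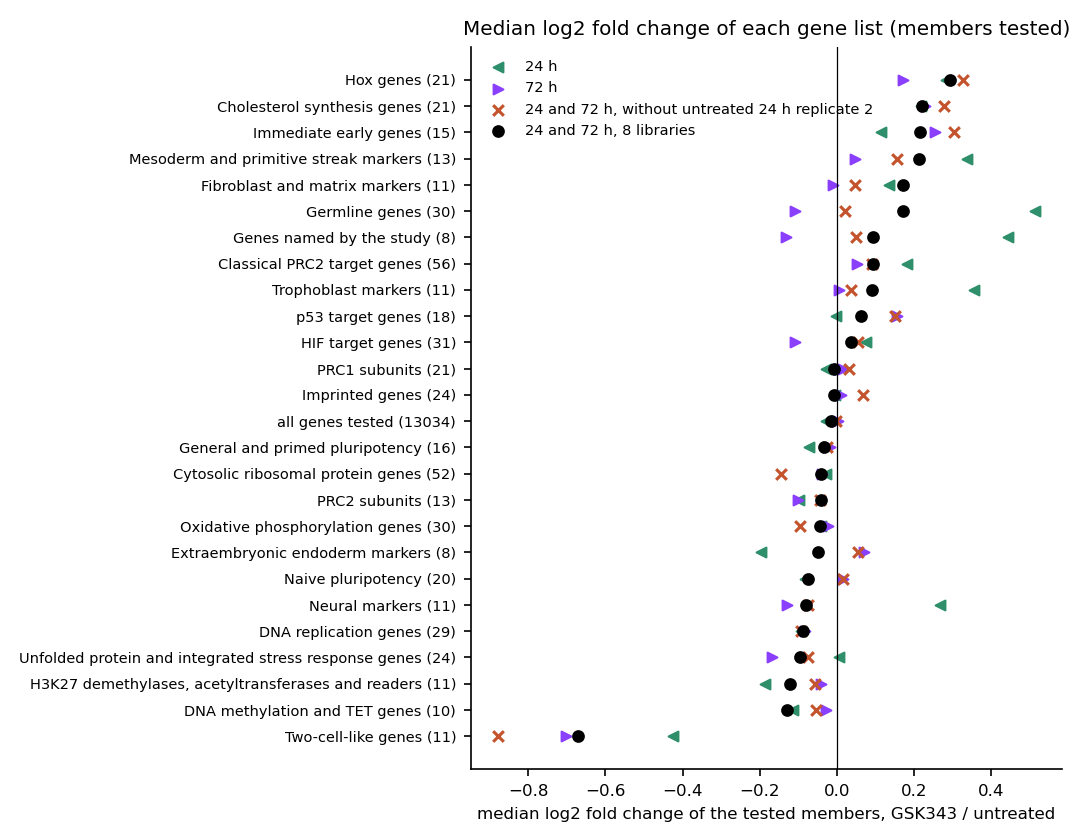
Median log2 fold change of the tested members of each gene list, GSK343 over untreated (x axis), with the number tested in brackets: all 8 libraries (black), 24 h, 72 h, and without untreated 24 h replicate 2 (cross). Cholesterol synthesis genes (0.22) and 2-cell-like genes (-0.67) keep their side of 0 in all 4 values, and germline genes are at 0.51 at 24 h and -0.11 at 72 h.

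Immediate early genes, which respond to growth factors and handling, were above 0 in 12 of 15 cases with a median of 0.22 and 4 at an unadjusted p under 0.05, all higher (2.08% of all genes). In the fit without untreated 24 h replicate 2, 12 were above 0 with a median of 0.30 and 8 higher at an unadjusted p under 0.05. Fos, a subunit of AP-1, was at 2.67, 5.70, 17.3 and 12.3 CPM in untreated and 8.23, 5.52, 25.8 and 23.6 CPM in treated cells (0.71 ± 0.20), and Jun, its partner, at 0.47 ± 0.14. The groups of Fos were apart at 72 h and overlapped at 24 h.

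DNA replication genes lay close below 0: 27 of 29 were negative, with a median of -0.09, and 3 were above 0 with a median of -0.09 without untreated 24 h replicate 2. Orc1, a subunit of the origin recognition complex, had the largest difference, -0.32 ± 0.11, and 2 lay below without overlap (0.737% of all genes): Mcm10, an initiation factor, at -0.19 ± 0.08, and Mcm2, a subunit of the replicative helicase, at -0.08 ± 0.08. Of 24 genes of the unfolded protein and integrated stress response, 8 were above 0 (median -0.10), and 3 were at an unadjusted p under 0.05, all lower (1.83% of all genes). When untreated 24 h replicate 2 was left out, 6 were above 0 (median -0.07), with 7 lower and 1 higher at an unadjusted p under 0.05. The 3 were Vldlr, a lipoprotein receptor, at -0.90 ± 0.27, the pseudokinase gene Trib3 at -0.62 ± 0.17, and Asns, the asparagine synthetase, at -0.23. Of 18 p53 targets 14 were above 0 with a median of 0.06 (15 and 0.15 without that library, with 7 instead of 2 higher at an unadjusted p under 0.05), and Btg2, an antiproliferative gene, was at 0.29 ± 0.11.

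Among 24 imprinted genes 12 were above 0 with a median of -0.01, and 13 with a median of 0.07 without untreated 24 h replicate 2. Grb10, an adaptor that restrains growth factor signalling, was at 13.0, 11.02, 11.9 and 9.76 CPM in untreated and 8.62, 9.47, 7.17 and 5.03 CPM in treated cells, without overlap (-0.60 ± 0.16). Oxidative phosphorylation genes were above 0 in 10 of 30 cases (median -0.04, Cox7b -0.20 ± 0.14) and cytosolic ribosomal protein genes in 15 of 52 (median -0.04, Rpl24 -0.22 ± 0.10). Both depended on untreated 24 h replicate 2, without which 4 of 30 (median -0.10) and 3 of 52 (median -0.14) were above 0. Of 31 targets of the hypoxia factor HIF, 18 were above 0 with a median of 0.04 (0.05 without that library), and Ndufa4l2, which lowers mitochondrial respiration, was at 0.54 ± 0.33 with and 0.00 without GSK343 24 h replicate 2, whose 11.6 CPM stood against 2.79 to 4.90 CPM in the other treated libraries.

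The effect was then taken at each time, with 2 libraries a group. At 24 h edgeR called 0 of 13034 genes (0%), with 648 at an unadjusted p under 0.05 (4.97%; DESeq2 0 called and 347), and at 72 h 0 (0%), with 145 (1.11%; DESeq2 0 and 64). The difference between the times, tested as an interaction, gave 0 genes (0%), with 254 at an unadjusted p under 0.05 (1.95%; DESeq2 0 and 115). Same-numbered libraries of the 2 groups deviated together at 72 h (Pearson correlation of replicate differences 0.618) but not at 24 h (-0.131). A fit of the 4 libraries of 72 h alone with the replicate number as a block, added after seeing the data, called 25 genes lower. In it 243 genes passed at any fold. The replicate block in the fit of all 8 libraries still called 0 genes at 72 h, with 195 at an unadjusted p under 0.05. The fit that called 25 genes had the block and also lacked the 24 h libraries. Which of these changes the count rests on was not tested. The log2 fold changes of the 2 times, which share no library, had a Spearman correlation of 0.158 across 13034 genes, and 0.314 across 13621 genes without untreated 24 h replicate 2. Genes are not independent replicates, and no test was made of it. The 24 h count depended on the untreated replicates: leaving out untreated 24 h replicate 1 gave 40 genes called higher and 60 lower at 24 h, and 36 and 13 for the difference, in a fit that assumes the lone remaining sample, the one that stood apart, to vary like the other groups.

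The genes that the study named for H3.3K27M were not called with GSK343, and several differed in sign between the times. Vegfa, a HIF target that drives vessel growth (chr17:46153942-46169326), was at 19.6, 20.9, 20.2 and 30.5 CPM in untreated and 18.8, 30.9, 16.6 and 9.28 CPM in treated cells. Its log2 fold change was 0.32 ± 0.29 at 24 h and -0.93 ± 0.30 at 72 h. For Ddit4, a stress-induced inhibitor of mTORC1, the values were 0.62 ± 0.23 and -0.46 ± 0.23. The difference between times was -1.25 ± 0.42 for Vegfa and -1.08 ± 0.33 for Ddit4, with an adjusted p of 1.00 (edgeR). Bhlhe40, a transcriptional repressor of the clock and hypoxia responses, was at 0.94 ± 0.22 and 0.06 ± 0.22.

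An earlier pair of times, 4 and 8 h of Dox with and without GSK343, shares no library with the late ones. There too 0 of 13560 genes were called (0%), with 1328 at an unadjusted p under 0.05 (9.79%). The difference of the late from the early effect gave 0 genes (0%), with 224 at an unadjusted p under 0.05 (1.65%; DESeq2 0 and 150). Cholesterol genes were above 0 in 19 of 21 cases at the early times with a median of 0.40, Cyp51 being at 0.62 and Insig1 at 0.40. Hox genes were above 0 in 19 of 21 with a median of 0.40, and 2-cell-like genes in 2 of 11 with a median of -0.21. Of all genes 54% were above 0. Other lists were nearly 1-sided at the early times too: 51 of 52 ribosomal protein (median 0.24), 28 of 30 oxidative phosphorylation (0.18) and 29 of 30 germline genes (0.36) were above 0. At the late times the first 2 of these had 15 of 52 and 10 of 30 above 0. For p53 targets the early count was 6 of 18. The early libraries were uneven: the length relation was 0.462 in untreated 8 h replicate 2 and -0.508 to -0.274 in the 4 GSK343 libraries, and GSK343 8 h replicate 2 held 1247934 counts. Their part in these values was not tested.

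H3.3K27M and GSK343 both inhibit PRC2, so the values of H3.3K27M-expressing ESCs at 24 and 72 h (4 libraries) against the same untreated libraries were set beside those of GSK343. The comparisons share the untreated libraries, untreated 24 h replicate 2 included, and no likeness between them was tested. The H3.3K27M cells are a separately selected line, while GSK343 was given to the WT-H3.3 line. Effects of the mutation and of the line therefore cannot be told apart in the H3.3K27M values. For H3.3K27M too 0 of 13264 genes were called (0%), with 1284 at an unadjusted p under 0.05 (9.68%). The study named the genes below for being higher in its own H3.3K27M ESCs at these times. Larger values there were thus built into the choice. They were 1.20 ± 0.28 for Vegfa (-0.28 ± 0.27 with GSK343), 1.53 ± 0.27 for Ddit4 (0.10 ± 0.22), 1.47 for Grin1, an NMDA receptor subunit (0.27), and 1.27 ± 0.28 for Bhlhe40 (0.48 ± 0.19). A2m, a protease inhibitor, was at 1.124 (0.09) and Ier3, an immediate early survival gene, at 1.06 (0.12). HIF targets were above 0 in 29 of 31 cases (50.2% of all genes) with a median of 0.49, against 18 of 31 and 0.04 with GSK343. Vegfa, Ddit4, Bhlhe40 and Ier3 are members of the HIF list too.

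Hox genes were above 0 in 3 of 21 cases with H3.3K27M, with a median of -0.67, against 19 and 0.29 with GSK343. Hoxd13 was at -1.08 and 0.51, Hoxd9 at -1.50 and 0.42. Classical PRC2 targets were above 0 in 12 of 56 and in 36 of 56. For cholesterol genes the counts were 14 and 20 of 21, with medians of 0.07 and 0.22. The 2-cell-like genes were below 0 in 11 of 11 in both, with medians of -0.94 and -0.67. P2rx7 was at -1.42 with H3.3K27M and 0.80 with GSK343.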

How the data were processed

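Raw counts of reads per gene were deposited by the authors after alignment to mm9 with STAR 2.7.1. Libraries were made with a 3′ tag kit or with KAPA kits; which one each library got is not given in the sources used here. The table held 55471 genes; 32589 were matched to the NCBIM37 annotation and held 98.1% of counts, the others keep the deposited identifiers. Chromosome 8 was left out as in the study (5.70% of counts); for 1097 of its 2532 genes the chromosome came from the gene order of the table.

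From the counts, edgeR 4.0.16 (R 4.3.3, TMM, filterByExpr, quasi-likelihood F test, Dox time as a factor) was run, and DESeq2 1.42.0 as an alternative. Genes were called at a Benjamini-Hochberg adjusted p under 0.05 over all genes tested and a fold above 2 or below 0.5. The SE is the log2 fold change over the root of F. CPM are TMM-scaled. The script was tested on simulated data first.

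Samples were grouped by the labels. The members, gene lists and tests were chosen with earlier results of these data known. Named were, for each list, the member of largest absolute log2 fold change, PRC2 and H3.3 genes, and the genes named by the study; others were chosen after their values were seen. No 2 libraries were copies (chi-square per gene of at least 1.51). p-values measure the spread between these samples. Alternatives changed the normalization, filter, tool, depth, samples, block and covariates. Promoters were RefSeq GRCm38.p6, matched by symbol for 9436 of 13024 tested symbols; none from chromosome 18 is printed. ChIP-seq and human samples were not analysed here, and some genes of the lists are not reported by name.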

Additional observations from a re-analysis of the deposited data

Results flagged for a closer look

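Among the genes named, 150 groups of 4 libraries were examined for a library far from the other 3 (Dixon's test at 95%, which chance alone passes in about 5% of groups), and 7 stood out. Each group spans both Dox times. Vegfa was at 30.5 CPM in untreated 72 h replicate 2, against 19.6 to 20.9 CPM in the other untreated libraries. Bhlhe40 was at 45.5 CPM in GSK343 24 h replicate 2, against 32.1 to 33.0 CPM. Uty was at 60.8 CPM in untreated 72 h replicate 2, against 41.5 to 44.3 CPM. Hoxa10 was at 2.2 CPM in untreated 24 h replicate 2, against 0.94 to 1.15 CPM. Zscan4c was at 4.5 CPM in GSK343 24 h replicate 1, against 2.28 to 2.52 CPM. Elavl4 was at 3.3 CPM in untreated 72 h replicate 1, against 1.66 to 1.88 CPM. Mcm2 was at 593.0 CPM in untreated 72 h replicate 2, against 581 to 583 CPM.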

How the results depend on the processing

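The comparison of 24 and 72 h kept 0 called genes in 23 of its 24 alternatives, leave-outs of each library included (330 to 1449 genes at an unadjusted p under 0.05). Among the 24, the settings with no fold threshold and with a stricter one recount the main fit. Since 0 genes passed the adjustment there, their 0 was fixed in advance. The exception among the 24 was the fit with no filter on low counts, which called 10 genes lower, with 70 to 535 counts in all 8 libraries. The fit with no filter also called 6 higher and 17 lower at 24 h, 6 lower at 72 h, 3 higher and 11 lower (Vegfa and Ddit4 among them) for 72 h minus 24 h, and 4 higher and 1 lower for late minus early. Its cause was not tested.

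Leaving out 1 library at a time gave 0 to 40 genes higher and 0 to 60 lower at 24 h, 0 to 36 and 0 to 13 for 72 h minus 24 h (the upper ends without untreated 24 h replicate 1), and 0 to 1 lower for late minus early (Cyp1a1, without untreated 8 h replicate 1). List medians ranged from -0.0638 to 0.0159 for naive pluripotency, -0.164 to -0.0568 for H3K27 enzymes and readers, 0.0472 to 0.262 for fibroblast markers, 0.0658 to 0.144 for PRC2 targets and 0.0279 to 0.21 for trophoblast markers. Others that crossed 0 were ribosomal protein (-0.144 to 0.0608), oxidative phosphorylation (-0.0959 to 0.0417), endoderm (-0.165 to 0.055), HIF (-0.0852 to 0.0786), imprinted (-0.0697 to 0.0674), neural (-0.0821 to 0.00994), PRC1 (-0.0449 to 0.0298) and the study's named genes (-0.0787 to 0.269). With the length covariate the naive pluripotency median was -0.0348.

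Same-numbered libraries of the 2 groups deviated together at 4 h (0.271) and 72 h (0.618), but not at 8 h (-0.109) or 24 h (-0.131). The main fits did not take the numbers as pairs at any time, since the study does not state a block. At 72 h the replicate block in the fit of 8 libraries called 0 genes (195 at an unadjusted p under 0.05), unlike the fit of the 72 h libraries alone given below. For 24 and 72 h together the replicate block gave 0 called genes (617 at an unadjusted p under 0.05), as did, added after seeing the data, a block per pair of a Dox time (595) and crossed numbers at 24 h (1116). The 72 h libraries alone with the replicate block called 25 genes lower, 243 passing at any fold. Of 809 values of 41 named genes under alternatives, 4 moved by more than the replicate SD (En1 in 2, Cbx8, Ndufa4l2). That SD is the spread of single libraries within a group and time, so large shifts can stay below it. With 1 library left out at a time, Sox3 ranged from -0.618 to 0.112 and Ddit4 from -0.191 to 0.281. Stard4 ranged from 0.348 to 0.47. The 95% interval lay within 2-fold for 13 of 21 Hox genes and 1 of 11 2-cell-like genes.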

Other observations

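Some genes outside the lists, chosen after their values were seen, lay without overlap between the groups, and none passed the adjusted threshold of edgeR. Fads2, a desaturase of polyunsaturated fatty acid synthesis, was at 132 to 177 CPM in untreated and 187 to 221 CPM in treated cells (0.32 ± 0.10). Rdh11, a retinal reductase, was at 45.1 to 56.3 and 58.0 to 73.7 CPM (0.36 ± 0.10), and Hexa, a lysosomal hexosaminidase subunit, at 66.5 to 81.3 and 86.9 to 96.8 CPM (0.32 ± 0.09). Cdc25a, a phosphatase that drives S phase entry, was lower, at 165 to 174 and 132 to 148 CPM (-0.27 ± 0.08).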
